A study of Mus musculus with 25 samples.

Results

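Genes of fatty acid oxidation and ketogenesis were followed through the development of the mouse liver. The 9 genes are Ppara, Cpt1a, Cpt2, Acadm, Acadl, Hadha, Bdh1, Acot1 and Fgf21, out of 18193 genes measured. Each gene was read on the probe set (a group of short probes on the array) that is annotated to its symbol alone and had the highest mean log2 value over the stages. The sets were 1457721_at (Ppara), 1460409_at (Cpt1a), 1416772_at (Cpt2), 1415984_at (Acadm), 1448987_at (Acadl), 1452173_at (Hadha), 1452257_at (Bdh1), 1449065_at (Acot1) and 1422916_at (Fgf21). The genes were chosen by their function in the pathway, with earlier results of these data known. Livers came from C57/B6 mice at 14 stages, with no treatment or altered allele named in the labels. The fetal stages were embryonic days 11.5, 12.5, 13.5, 14.5, 15.5, 16.5, 17.5 and 18.5 (E11.5 to E18.5). The later stages were the day of birth (Day0), days 3, 7, 14 and 21 after birth (Day3, Day7, Day14 and Day21) and adult mice at 18 weeks. Each stage is 1 pool of livers, made before RNA was extracted: 12 livers for E11.5, 9 each for E12.5 and E13.5, 6 each for E14.5 and E15.5, and 3 for every stage after that. A total of 25 arrays were made, 2 technical repeats at 11 stages and 1 array at E18.5, Day7 and Day14. Each array measures whole liver RNA, and in bulk samples fewer cells of a type and less RNA per cell cannot be told apart. Labels do not state when pups were weaned or when they were last fed.

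Mitochondria burn fatty acids by beta oxidation. The carnitine shuttle (CPT1A on the outer membrane, CPT2 on the inner membrane) brings long-chain fatty acids in, and chain-specific dehydrogenases and the trifunctional protein then shorten them to acetyl-CoA. In the liver much of that acetyl-CoA becomes ketone bodies, which other organs use as fuel. Newborn mice lose the glucose supply of the placenta and turn to fat-rich milk, and the nuclear receptor PPARalpha, which binds fatty acids, drives many genes of this pathway in the suckling and the fasting liver.

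Hepatocyte markers checked the tissue. The 5 measured ones of 6 listed (Alb, the albumin gene, among them) had a mean log2 intensity of 11.19 at E11.5, 11.60 at E14.5, 13.04 at E15.5 and 13.47 to 13.98 from Day0 to Day14. Erythroid markers, 8 measured of 10, stood at 9.39 to 10.71 at the fetal stages, at 9.78 on Day0, at 7.92 on Day7 and at 6.22 to 6.43 later. All 8 skeletal muscle markers were measured, and their mean was 7.09 at E18.5 against 5.10 to 5.57 at every other stage. Their highest member at E18.5 was Acta1, skeletal muscle actin, at 9.56. Changes of the 9 genes called on Day0 against E18.5, and the pathway genes named at that step, are therefore also given against E17.5. The gut fatty acid binding protein Fabp2 read 8.53 on Day3 and 10.99 on Day7, and 5.21 on Day0. It then read 9.67 on Day14, 8.27 on Day21 and 8.71 in adults. The other gut marker, Vil1, read 5.24 on Day7 and 4.71 to 5.19 at the other stages. All 3 kidney and adrenal markers were measured, with a mean of 6.65 on the single Day7 array and 5.24 to 5.49 at the other stages. The kidney marker Umod read 8.02 on Day7 and 4.11 to 4.46 at every other stage, whereas the adrenal markers Star (6.73) and Cyp11b1 (5.21) lay on Day7 within their range at the other stages.

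The 9 genes followed 3 kinds of course by their highest stage. Ppara, Cpt1a, Cpt2, Acadm, Acadl, Hadha and Bdh1 were highest on Day7 or, for Ppara, on Day21. Of these, Ppara was lowest at E11.5, Acadm, Acadl and Hadha at E13.5, Cpt1a and Cpt2 at E16.5, and Bdh1 on Day0. Acot1 was highest on Day0 and Fgf21 on Day3. Between its lowest and its highest stage Cpt1a spanned 4.67 log2 units (25.5-fold) and Bdh1 4.25 (19.1-fold). Acot1 spanned 3.69 (12.9-fold), Acadl 3.12 (8.69-fold), Ppara 3.02 (8.11-fold) and Acadm 2.72 (6.60-fold). Hadha spanned 2.26 (4.78-fold), Cpt2 2.24 (4.73-fold) and Fgf21 2.11 (4.33-fold). Repeat arrays of a stage differed by a pooled standard deviation of 0.18 to 0.27 log2 units in these genes.

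**Figure D1:**
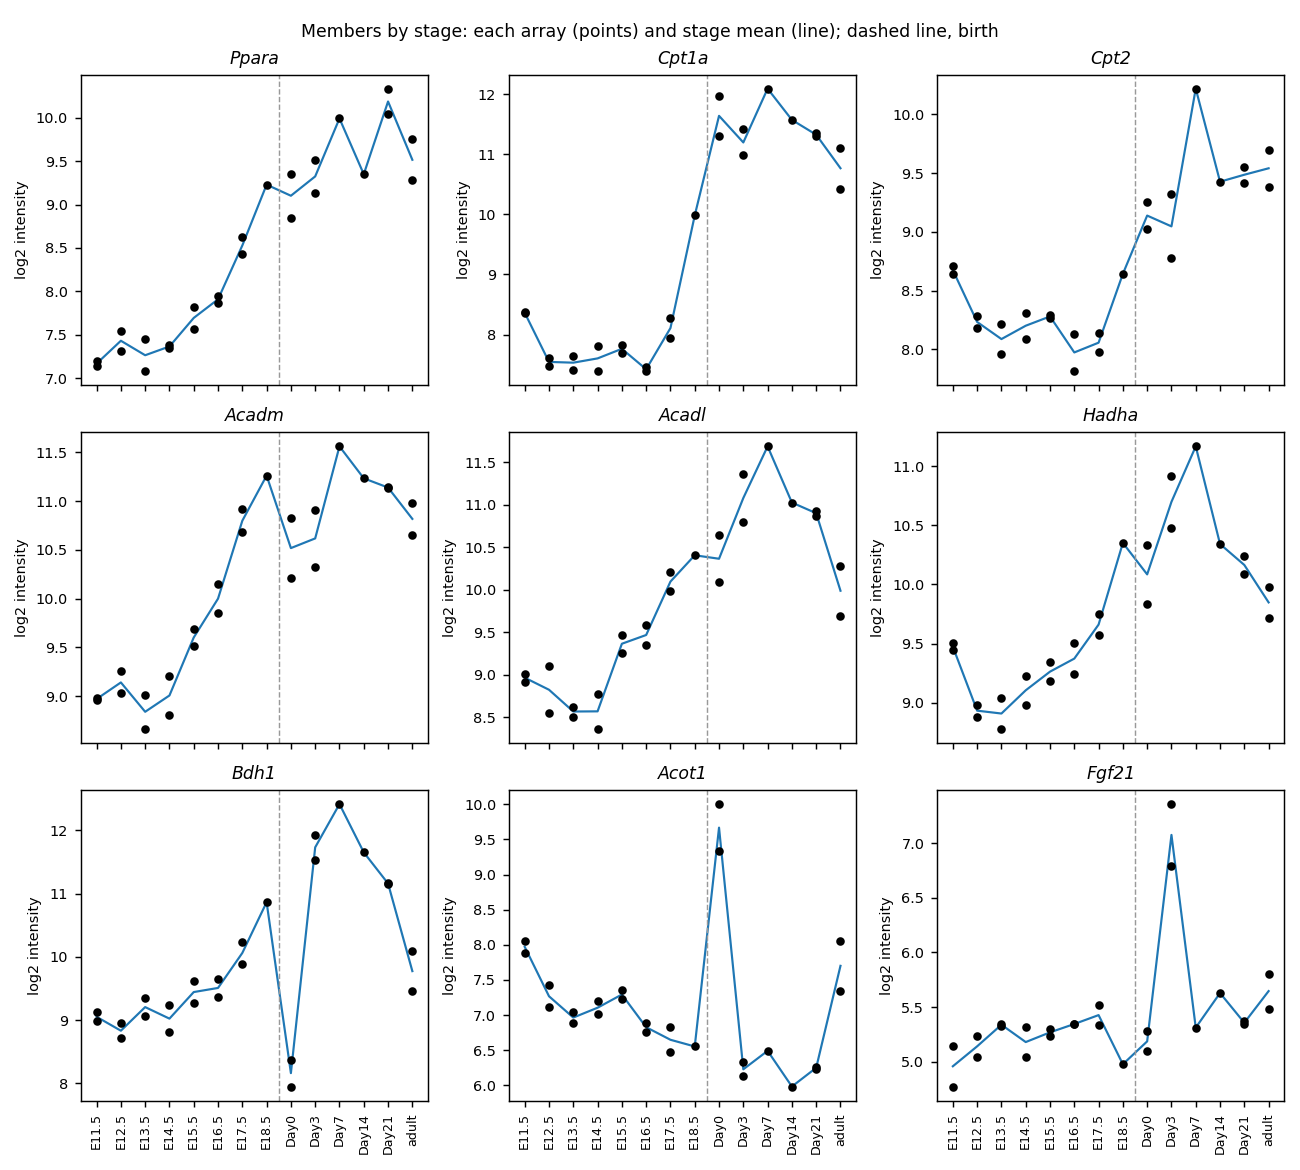
Log2 intensity of the 9 genes (vertical axes, 1 panel each with its own scale) at the 14 stages in order of age (horizontal axes). Points are arrays, lines join stage means and the dashed line marks birth. Acot1 stands at 9.67 and Bdh1 at 8.16 on Day0, away from their neighbouring stages, and Fgf21 stands apart on Day3 at 7.07.

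Promoter sequences are shown for 5 of the genes, with letters from RefSeq in build GRCm38.p6 (all 9 genes matched, Bdh1 with 2 windows, 10 windows in all). Each window holds the 250 bases before the gene's annotated start, on the gene's own strand. Acot1 (chr12:84009252-84009501, plus strand) and Fgf21 (chr7:45615491-45615740, minus strand) are shown for their peaks on Day0 and Day3. Cpt1a (chr19:3323051-3323300, plus strand, inside a longer model of the gene) is shown for its large range, Acadm (chr3:153944644-153944893, minus strand) as the gene among the 9 most like Ppara over the stages (r = 0.94), and Hadha (chr5:30154981-30155230, minus strand) because its neighbour Hadhb starts in the opposite direction on the other side of the window. Capitals mark letters found by a search of both strands.
Acot1: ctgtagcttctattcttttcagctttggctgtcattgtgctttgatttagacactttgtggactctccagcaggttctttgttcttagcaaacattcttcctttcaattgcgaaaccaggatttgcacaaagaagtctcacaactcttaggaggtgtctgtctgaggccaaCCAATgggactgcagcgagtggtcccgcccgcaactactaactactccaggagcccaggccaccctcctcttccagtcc
Fgf21: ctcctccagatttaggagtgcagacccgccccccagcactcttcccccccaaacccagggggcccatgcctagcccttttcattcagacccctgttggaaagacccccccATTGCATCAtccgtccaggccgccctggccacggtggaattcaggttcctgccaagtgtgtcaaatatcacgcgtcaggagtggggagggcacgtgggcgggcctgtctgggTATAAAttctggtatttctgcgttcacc
Cpt1a: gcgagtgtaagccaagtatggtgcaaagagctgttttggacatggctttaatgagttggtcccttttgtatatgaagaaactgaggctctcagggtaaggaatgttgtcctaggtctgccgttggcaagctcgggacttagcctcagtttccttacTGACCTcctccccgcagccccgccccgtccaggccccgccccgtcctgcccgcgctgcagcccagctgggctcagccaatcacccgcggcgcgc
Acadm: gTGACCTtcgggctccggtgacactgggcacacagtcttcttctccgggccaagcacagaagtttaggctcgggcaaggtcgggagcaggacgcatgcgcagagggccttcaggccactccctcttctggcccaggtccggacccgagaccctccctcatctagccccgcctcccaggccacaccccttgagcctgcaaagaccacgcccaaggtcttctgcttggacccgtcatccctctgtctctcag
Hadha: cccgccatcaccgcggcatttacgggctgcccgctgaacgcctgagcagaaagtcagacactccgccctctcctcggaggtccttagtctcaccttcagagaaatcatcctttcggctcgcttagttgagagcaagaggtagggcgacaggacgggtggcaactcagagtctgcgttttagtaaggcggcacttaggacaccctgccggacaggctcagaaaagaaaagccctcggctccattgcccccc
The searched motifs were chosen after the sequences had been looked at. In Acot1 the capitals mark CCAAT, 79 to 75 bases before the start, a word held by 33.8% of all 32851 windows; the Cpt1a window also holds it, in lower case. In Fgf21 they mark ATTGCATCA, 140 to 132 bases before the start, the reverse complement of a match to TGATGNAAT (the letters bound by ATF4 with CEBP partners), which 0.816% of windows hold. The other Fgf21 mark is TATAAA, 28 to 23 bases before the start, held by 12.4%. In Cpt1a and Acadm the capitals mark TGACCT, the reverse complement of the nuclear receptor core site AGGTCA, 94 to 89 and 249 to 244 bases before the start, which 14.0% of windows hold. The exact core repeated 1 base apart, the only form of a PPAR response element searched, was in 0 of the 10 windows. It was in 11 of all 32851 windows (0.0335%). A word this rare is hardly to be met in 10 windows, so its absence tells nothing about PPAR response elements of these genes. No letters were marked in the Hadha window. A match describes letters in a window and not a bound site.

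Neighbouring stages were compared with limma on all 25 arrays. A gene was called at an adjusted p under 0.05 (Benjamini-Hochberg, over all genes of a step) and a change of 1 log2 unit (2-fold) or more. Only called changes are said to have risen or fallen. The errors (SE) come from technical repeats, so these p-values measure the spread between arrays of the same pools and not between animals. Stages with 1 array were taken to vary like the others. Over the 13 steps the 9 genes were called 11 times, 7 times higher and 4 times lower at the later stage. At the steps up to E17.5 none was called, where 2.76% (to E12.5), 1.04% (to E13.5), 0.044% (to E14.5), 2.46% (to E15.5), 0.236% (to E16.5) and 0.748% (to E17.5) of all genes were called in either direction. At an unadjusted p under 0.05 these steps gave 4, 0, 0, 2, 0 and 5 of the 9. Neighbouring steps share a stage, so a value that stands apart at 1 stage enters both. Stages were also ranked by the level of each gene, and neighbours in that order were picked by the values compared. Their p-values, adjusted over genes and not over pairs of stages, are therefore descriptions.

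**Figure D2:**
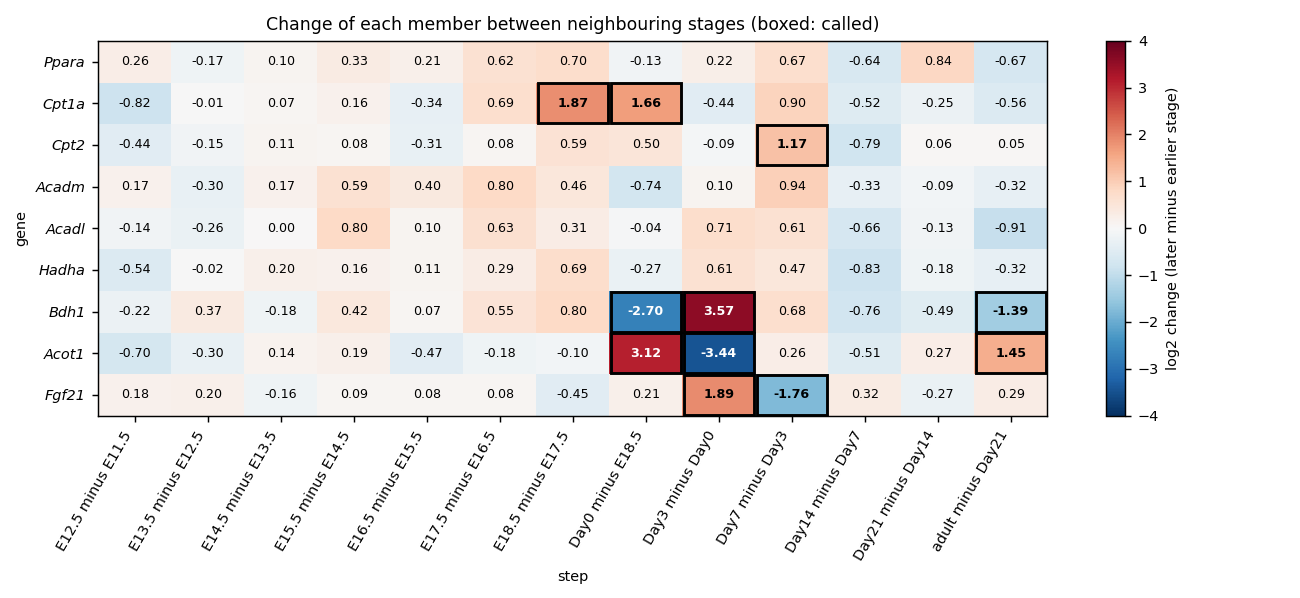
Log2 change of each gene (rows) at each step, later minus earlier stage (columns), printed and coloured (red higher, blue lower at the later stage). Boxes mark the 11 called changes; the largest are those of Bdh1 and Acot1 on both sides of Day0.

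Ppara encodes the nuclear receptor PPARalpha. Its 2 arrays read 7.19 and 7.14 at E11.5, 7.31 and 7.55 at E12.5, 7.08 and 7.45 at E13.5, and 7.38 and 7.35 at E14.5. They read 7.57 and 7.82 at E15.5, 7.95 and 7.87 at E16.5, and 8.63 and 8.43 at E17.5, followed by 9.23 on the E18.5 array. After birth they read 9.36 and 8.85 on Day0, 9.52 and 9.13 on Day3, 9.99 on Day7, 9.35 on Day14, 10.34 and 10.04 on Day21, and 9.28 and 9.75 in adults. Every value from E17.5 on lay above every value up to E16.5. No step was called on this probe set, although the changes to E18.5 (0.70 ± 0.24, limma adjusted p = 0.0469) and to Day21 (0.84 ± 0.24, adjusted p = 0.029) passed the p threshold alone. In the order of levels no pair of neighbouring stages differed at an adjusted p under 0.05.

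The other Ppara probe sets had a steeper course before birth. Set 1449051_at averaged 9.65 at E18.5 against 7.60 at E17.5, a rise of 2.05 ± 0.22 log2 units (adjusted p = 2.81e-05 over 45037 probe sets). Set 1439675_at averaged 8.99 at E18.5 against 7.59 at E17.5, a rise of 1.40 ± 0.23 (adjusted p = 0.000726). On Day0 over E17.5, without the E18.5 array, they rose by 1.75 ± 0.18 and 1.40 ± 0.19. Set 1439675_at had also risen at the step to E17.5, by 1.03 ± 0.19. From E11.5 to its highest stage, Day21, the set used spanned fewer log2 units than either.

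**Figure D3:**
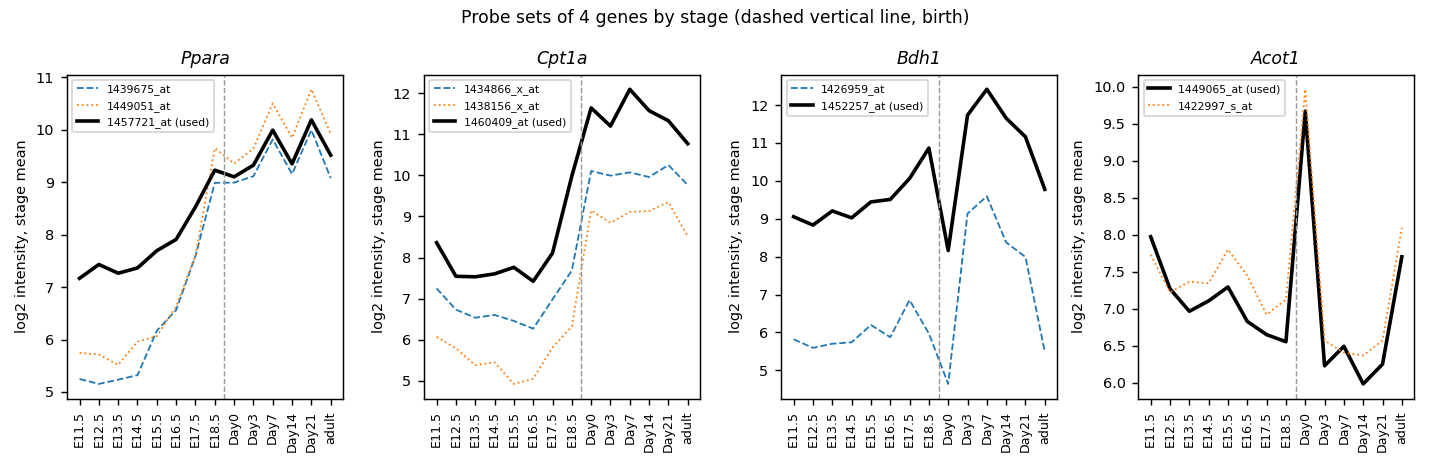
Stage means (log2 intensity, vertical axes) of every probe set of Ppara, Cpt1a and Bdh1, and of the Acot1 set beside the set shared by Acot1 and Acot2, by stage (horizontal axes); the heavy line is the set used and the dashed vertical line is birth. The sets of a gene share the direction of the Day0 changes of Cpt1a, Bdh1 and Acot1.

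Cpt1a encodes the liver form of carnitine palmitoyltransferase on the outer mitochondrial membrane, the step of entry that malonyl-CoA inhibits. It read 8.37 and 8.35 at E11.5, 7.61 and 7.48 at E12.5, 7.41 and 7.65 at E13.5, and 7.81 and 7.39 at E14.5. The E15.5 arrays read 7.70 and 7.82, and the E16.5 arrays 7.39 and 7.45. Cpt1a then read 8.27 and 7.94 at E17.5, 9.98 at E18.5, and 11.97 and 11.31 on Day0. Later values were 11.41 and 10.98 on Day3, 12.09 on Day7, 11.57 on Day14, 11.30 and 11.35 on Day21, and 10.43 and 11.11 in adults. All arrays from Day0 on lay above all fetal arrays. Cpt1a rose at E18.5 over E17.5 by 1.87 ± 0.28 log2 units (3.67-fold, adjusted p = 0.000365), as 2.32% of all genes did. On Day0 it rose again over E18.5, by 1.66 ± 0.28 (3.16-fold, adjusted p = 0.000635), where 3.63% of all genes were called higher. Day0 over E17.5, without the E18.5 array, gave 3.53 ± 0.23 (adjusted p = 4.58e-08; 2.61% of all genes called higher).

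The other Cpt1a sets split that rise differently. Set 1434866_x_at changed by 0.70 ± 0.25 at E18.5 (adjusted p = 0.0614) and 1438156_x_at by 0.51 ± 0.31 (adjusted p = 0.274), neither called. On Day0 over E18.5 they rose by 2.42 ± 0.25 and 2.83 ± 0.31, and on Day0 over E17.5 by 3.12 ± 0.21 and 3.33 ± 0.25. The ending _x marks sets whose probes can match several transcripts. In the order of the levels, the adult stage lay above E18.5 by 0.79 ± 0.28 (adjusted p = 0.0436) and E18.5 above E11.5 by 1.62 ± 0.28 (adjusted p = 0.000198), and no other pair of neighbours passed 0.05.

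Cpt2 encodes the partner on the inner membrane, which remakes acyl-CoA inside the mitochondrion. It read 8.71 and 8.64 at E11.5, and between 7.82 and 8.31 on every array from E12.5 to E17.5. It read 8.64 at E18.5, 9.25 and 9.03 on Day0, 9.32 and 8.77 on Day3, 10.22 on Day7, 9.43 on Day14, 9.42 and 9.55 on Day21, and 9.39 and 9.70 in adults. All arrays from Day0 on were above the fetal ones, and the Day7 array stood above all others. Cpt2 rose on Day7 over Day3 by 1.17 ± 0.20 (2.25-fold, adjusted p = 0.000794; 3.32% of all genes called higher). That call was lost (0.50 to 0.90 log2 units) after quantile normalisation, with hepatocyte markers set equal, on the mean of all sets, without array 2 of Day3, and on its other set. The Day7 array also read 8.02 for the kidney marker Umod and 10.99 for the gut marker Fabp2, beside 5.24 for the gut marker Vil1. The part of these markers in this change was not tested. On Day0 it lay 0.50 above E18.5, which was not called, and 1.08 ± 0.17 above E17.5 (adjusted p = 0.00035).

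Acadm and Acadl encode the dehydrogenases that start each round of beta oxidation on medium and long chains, and Hadha encodes the alpha subunit of the trifunctional protein, which carries out later reactions of the round on long chains. Acadm read 8.66 to 9.25 on the arrays from E11.5 to E14.5. The E15.5 arrays read 9.69 and 9.51, followed by 10.15 and 9.85 at E16.5, 10.91 and 10.68 at E17.5, and 11.26 at E18.5. It then read 10.83 and 10.21 on Day0, 10.91 and 10.32 on Day3, 11.56 on Day7, 11.23 on Day14, 11.14 on both arrays of Day21, and 10.65 and 10.98 in adults. The Acadm mean was thus higher at each stage from E15.5 to E18.5 than at the stage before, with no step called. Acadm lay lower on Day0 than at E18.5, by a difference of -0.74 that was not called (-0.28 against E17.5).

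Acadl read 8.37 to 9.10 up to E14.5 and 9.26 to 10.21 from E15.5 to E17.5, then 10.41 at E18.5. It read 10.64 and 10.09 on Day0, 11.36 and 10.80 on Day3, 11.69 on Day7, 11.03 on Day14, 10.93 and 10.87 on Day21, and 9.70 and 10.29 in adults. Both adult arrays lay below both Day21 arrays, by 0.91 ± 0.24 on average (adjusted p = 0.0316), short of 1 log2 unit. Its other set, 1448988_at, was dim throughout, with stage means of 4.35 to 4.77, below the array medians of 5.41 to 5.53.

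Hadha read 9.50 and 9.44 at E11.5, 8.78 to 9.23 from E12.5 to E14.5, 9.18 to 9.75 from E15.5 to E17.5, and 10.35 at E18.5. It read 10.33 and 9.84 on Day0, 10.92 and 10.48 on Day3, 11.17 on Day7, 10.34 on Day14, 10.09 and 10.24 on Day21, and 9.72 and 9.98 in adults. Its values thus peaked in the first week and the adult arrays overlapped those of Day0. None of the 13 steps was called for Acadm, Acadl or Hadha. In the order of levels of each of these genes no neighbouring stages differed at an adjusted p under 0.05.

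Bdh1 encodes the mitochondrial dehydrogenase that turns acetoacetate into beta-hydroxybutyrate, the last step of ketone synthesis, and back. It read 9.13 and 8.98 at E11.5, 8.95 and 8.71 at E12.5, 9.35 and 9.06 at E13.5, and 9.23 and 8.81 at E14.5. It read 9.61 and 9.28 at E15.5, 9.65 and 9.37 at E16.5, 10.23 and 9.89 at E17.5, and 10.86 at E18.5. On Day0 it read 8.37 and 7.95, the lowest values of the series, and on Day3 11.93 and 11.53. Later values were 12.42 on Day7, 11.65 on Day14, 11.15 and 11.18 on Day21, and 9.46 and 10.09 in adults.

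Bdh1 fell by 2.70 ± 0.27 log2 units on Day0 against E18.5 (6.51-fold, adjusted p = 7.59e-06; 2.25% of all genes called lower). Against E17.5 it fell by 1.90 ± 0.22 (adjusted p = 2.56e-05; 1.26% of all genes called lower). Day3 stood 3.57 ± 0.22 above Day0 (11.9-fold, adjusted p = 3.43e-08; 1.81% of all genes called higher), and both steps share the 2 Day0 arrays. Day0 also lay below E12.5, the next lowest stage, by 0.67 ± 0.22 (adjusted p = 0.0283). In adults it fell by 1.39 ± 0.22 against Day21 (2.61-fold, adjusted p = 0.001; 1.2% of all genes called lower).

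The second Bdh1 set, 1426959_at, moved the same way at all 3 of these steps, but its Day0 mean of 4.64 lay below the array medians of 5.41 to 5.53, so the sizes of its Day0 differences are uncertain. It averaged 4.64 on Day0 against 5.97 at E18.5 (-1.33 ± 0.34, adjusted p = 0.00985) and 6.85 at E17.5 (-2.21 ± 0.27). It averaged 9.14 on Day3. In adults it averaged 5.49, near the array medians, against 7.99 on Day21 (-2.50 ± 0.27). Between E17.5 and E18.5 it did not share the direction of the set used, which stood at 10.86 at E18.5 against 10.06 at E17.5 (0.80 ± 0.27, adjusted p = 0.0478).

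Acot1 encodes a cytosolic thioesterase that splits long-chain acyl-CoA into free fatty acid and CoA, the reverse of activation. It read 8.06 and 7.88 at E11.5, 7.42 and 7.11 at E12.5, 7.04 and 6.89 at E13.5, and 7.20 and 7.01 at E14.5. Its arrays then read 7.35 and 7.23 at E15.5, 6.89 and 6.76 at E16.5, 6.82 and 6.47 at E17.5, and 6.55 at E18.5. On Day0 it read 10.004 and 9.333. Later values were 6.33 and 6.12 on Day3, 6.49 on Day7, 5.98 on Day14, 6.26 and 6.23 on Day21, and 7.34 and 8.06 in adults. Both Day0 arrays lay above every other array, and both adult arrays lay above every array from Day3 to Day21.

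Acot1 rose on Day0 by 3.12 ± 0.27 over E18.5 (8.67-fold, adjusted p = 1.82e-06) and by 3.02 ± 0.22 over E17.5 (adjusted p = 1.75e-07). It fell by 3.44 ± 0.22 on Day3 against Day0 (10.9-fold, adjusted p = 4.72e-08; 1.1% of all genes called lower). Day0 also exceeded E11.5, the next highest stage, by 1.70 ± 0.22 (adjusted p = 1.27e-05). In adults it rose by 1.45 ± 0.22 over Day21 (2.74-fold, adjusted p = 0.000608; 0.61% of all genes called higher).

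Acot2, a neighbouring near copy of Acot1 whose product works in mitochondria, shares probe set 1422997_s_at with it, so part of the signal of the pair cannot be assigned. The shared set rose by 2.84 ± 0.18 on Day0 over E18.5 (3.05 ± 0.14 over E17.5), fell by 3.40 ± 0.14 on Day3 against Day0 and rose by 1.52 ± 0.14 in adults over Day21. The set of Acot2 alone averaged 7.92 on Day0 against 6.86 at E18.5, a rise of 1.06 ± 0.15 (adjusted p = 0.000121); against E17.5 (7.18) the change was 0.74 ± 0.12 and was not called. Skeletal muscle markers were at their highest at E18.5, which serves as the earlier stage of these birth steps; against E17.5, where the muscle mean was 5.18, the changes of Acot1, Cpt1a and Bdh1 were called too, at 3.02, 3.53 and -1.90.

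Fgf21 encodes a hormone that the mouse liver secretes when fat is burned and that acts through receptors with the co-receptor beta-klotho. It was dim at most stages, near the array medians of 5.41 to 5.53. The arrays read 4.77 to 5.52 at the fetal stages, 5.10 and 5.28 on Day0, 7.36 and 6.79 on Day3, 5.31 on Day7, 5.63 on Day14, 5.34 and 5.37 on Day21, and 5.81 and 5.49 in adults. Both Day3 arrays lay above all others. Fgf21 rose on Day3 over Day0 by 1.89 ± 0.17 (3.70-fold, adjusted p = 1.81e-06) and fell by 1.76 ± 0.21 on Day7 against Day3 (3.39-fold, adjusted p = 3.2e-05; 2.84% of all genes called lower). The pancreas marker Cpa1 stood at 5.70 on Day3 against 6.08 on Day0. The gut markers Fabp2 and Vil1 stood at 8.53 and 5.02 on Day3 against 5.21 and 4.96 on Day0. The part of these markers in the Fgf21 changes was not tested. Day3 exceeded the adult stage, the next highest, by 1.43 ± 0.17 (adjusted p = 9.76e-06). All other neighbours in its order of levels did not pass 0.05.

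Classes of stages were compared next, with stages as replicates, so their spread includes development within a class. The late fetal liver (E15.5 to E18.5) was set against the early fetal liver (E11.5 to E14.5), 4 stages each. Ppara, Acadm and Acadl were higher in the late fetal class, 3 of 9 genes, where 1.93% of all genes were called higher and 3.53% lower. Acadm averaged 10.41 ± 0.75 in the late and 8.99 ± 0.12 in the early fetal class (SD, n = 4 stages each), a rise of 1.43 ± 0.33 (SE, adjusted p = 0.0176). Acadl averaged 9.84 ± 0.50 in the late and 8.73 ± 0.20 in the early class, a rise of 1.10 ± 0.30 (adjusted p = 0.0347). Ppara averaged 8.34 ± 0.69 in the late and 7.31 ± 0.12 in the early class, a rise of 1.03 ± 0.30 (adjusted p = 0.0431). Bdh1 (0.94), Cpt1a and Hadha (0.56 each), Fgf21 (0.10), Cpt2 (-0.06) and Acot1 (-0.50) were not called. The median change of the 9 was 0.56 and that of all genes 0.03. The Acadm call stood under 26 of 29 alternatives, the Acadl call under 17 and the Ppara call under 15, and without E17.5 0 of the 9 were called. Of the 5 hepatocyte markers 4 were called higher over the same stages, and with their mean set equal on all arrays these 3 differences became -0.47 (Acadm), -0.79 (Acadl) and -0.86 (Ppara). That setting moves the median of all genes by -1.87.

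Other genes of the pathway, 93 measured of 102 listed by role, gave 16 called higher and 1 lower in the late fetal class, with a median change of 0.42. Among genes of fatty acid uptake 4 of 16 rose, namely Fabp1 (2.82 ± 0.48), the liver fatty acid binding protein, Slc27a5 (2.65 ± 0.62), the fatty acid transporter Cd36 (2.37 ± 0.41) and Slc27a2 (1.62 ± 0.39). Peroxisomal oxidation also gave 4 risers of 14, led by the thiolase Acaa1b (3.02 ± 0.80) and the branched-chain oxidase Acox2 (2.64 ± 0.36). In mitochondrial beta oxidation 5 of 17 rose, among them Ech1 (1.77 ± 0.40) and the thiolase Acaa2 (1.59 ± 0.38). Acat1, which joins acetyl-CoA units at the start of ketone synthesis, rose by 1.87 ± 0.44. The thioesterase Acot7 fell by 1.10 ± 0.29.

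Suckling stages (Day0 to Day14) were then set against the late fetal class. Cpt1a averaged 11.63 ± 0.37 in the suckling and 8.32 ± 1.14 in the late fetal class (SD, n = 4 stages each), a rise of 3.31 ± 0.46 (9.90-fold, adjusted p = 0.00404). Cpt2 averaged 9.46 ± 0.53 in the suckling and 8.24 ± 0.30 in the late fetal class, a rise of 1.22 ± 0.24 (2.33-fold, adjusted p = 0.0196). These were the 2 of 9 called, both in the carnitine shuttle, where 1.82% of all genes were called higher and 0.5% lower. Acadl changed by 1.21 ± 0.30 (adjusted p = 0.0501), Ppara by 1.10 ± 0.30 (adjusted p = 0.0664) and Hadha by 0.91 ± 0.27 (adjusted p = 0.0815), none called. Bdh1 (1.02 ± 0.75), Acadm (0.57), Fgf21 (0.55) and Acot1 (0.26) were not called either. All 9 changes were above 0, with a median of 1.02 beside 0.01 for all genes. The Cpt1a call stood under all 29 alternatives. The Cpt2 call stood under 22 of 29 and was lost without E15.5, E16.5, E17.5 or Day7, and without Day0 or without E18.5 5 of the 9 genes were called in place of 2.

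Of the other pathway genes, 21 of 93 were higher and 0 lower in the suckling class (limma), with a median change of 0.79. Peroxisomal and omega oxidation gave 7 of 14, with a median of 1.98. Its largest rises were those of the omega hydroxylase Cyp4a14 (5.07 ± 0.84), Acaa1b (3.69 ± 0.80), the bifunctional enzyme Ehhadh (2.91 ± 0.50) and the racemase Amacr (2.68 ± 0.30). In the carnitine shuttle Crot (2.63 ± 0.59) and Slc25a20 (1.89 ± 0.25), the carrier that works between CPT1A and CPT2, rose among 5 genes. Mitochondrial beta oxidation had 5 of 17 called, including Eci2 (2.0 ± 0.34), Etfdh (1.97 ± 0.31), which passes electrons on to the respiratory chain, and the very long chain dehydrogenase Acadvl (1.64 ± 0.34). Hadhb, the beta subunit that pairs with Hadha, changed by 1.13 ± 0.32 (adjusted p = 0.0749). Among regulators, Sirt3 (2.09 ± 0.42), a mitochondrial deacetylase, and Creb3l3 (1.52 ± 0.27), a liver factor that can act with PPARalpha, rose among 13. Mlycd, which removes the CPT1 inhibitor malonyl-CoA, rose by 1.32 ± 0.17. In ketone synthesis and export 0 of 4 measured genes were called.

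At the step from E18.5 to Day0 pathway genes were called in both directions. On Day0 against E18.5, 21 of the 93 other pathway genes rose and 7 fell, beside 3.63% and 2.25% of all genes. Pdk4, the kinase that holds pyruvate dehydrogenase off in fasting, averaged 10.30 on Day0 against 5.80 at E18.5, a rise of 4.50 ± 0.17 (adjusted p = 3.34e-10). The triglyceride lipase Pnpla2 (2.73 ± 0.20), the coactivator Ppargc1a (2.62 ± 0.16), Cyp4a14 (2.4 ± 0.25), Ehhadh (2.38 ± 0.26) and the lipid droplet protein Plin5 (2.07 ± 0.20) followed. Txnip (1.95 ± 0.22), Sirt1 (1.87 ± 0.23), Angptl4 (1.57 ± 0.22), Ppargc1b (1.45 ± 0.15) and Mlycd (1.37 ± 0.20) rose as well, and Slc25a20 did so by 1.10 ± 0.19. The 7 that fell were the fatty acid synthase Fasn (-2.38 ± 0.18), the lipase activator Abhd5 (-2.20 ± 0.16), Pecr (-2.18 ± 0.16), the short-chain dehydrogenase Hadh (-1.44 ± 0.30), Acat1 (-1.28 ± 0.24), Acaa2 (-1.10 ± 0.24) and Acaca (-1.02 ± 0.16), which makes malonyl-CoA. Within mitochondrial beta oxidation 1 of 17 rose and 2 fell at this step.

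Against E17.5 the count on Day0 was 32 higher and 4 lower of 93, beside 2.61% and 1.26% of all genes, and 17 of the 21 that rose and 3 of the 7 that fell against E18.5 were among them. Mitochondrial beta oxidation then had 4 of 17 higher and 0 lower (limma), namely Etfdh (2.19 ± 0.23), Eci2 (1.91 ± 0.21), Acad11 (1.22 ± 0.19) and Acadvl (1.10 ± 0.22). Pdk4 (4.29 ± 0.14), Ehhadh (4.28 ± 0.21), Txnip (3.06 ± 0.18), Pnpla2 (2.99 ± 0.16), Angptl4 (2.67 ± 0.18), Ppargc1a (2.61 ± 0.13), Plin5 (2.15 ± 0.17), Slc25a20 (1.67 ± 0.15), Mlycd (1.48 ± 0.16) and Ppargc1b (1.04 ± 0.12) rose against E17.5 too. Cyp4a14 did so by 6.37 ± 0.21, with an E17.5 level of 5.39, below the array medians. Sirt1 changed by 0.12 ± 0.19 against E17.5 and was not called. It read 5.04 to 5.62 at E18.5, Day7 and Day14, the stages with 1 array, and 6.67 to 8.79 at all other stages. Pecr (-1.68 ± 0.13), Abhd5 (-1.42 ± 0.13) and Fasn (-1.40 ± 0.14) fell against E17.5, but Hadh (-0.96 ± 0.25), Acaca (-0.63 ± 0.13), Acat1 (-0.60 ± 0.20) and Acaa2 (-0.40 ± 0.20) were not called.

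Day3 was next set against Day0, a step that shares the Day0 arrays with the one above. Of the 93 genes 12 rose and 9 fell, beside 1.81% and 1.1% of all genes. Lpin1, a phosphatase and coactivator of lipid metabolism, averaged 7.09 on Day3 against 10.90 on Day0 (-3.81 ± 0.22, adjusted p = 1.5e-08). Pdk4 (-3.28 ± 0.14), Ppargc1a (-2.58 ± 0.13), Pnpla2 (-2.39 ± 0.16), Angptl4 (-2.12 ± 0.18), Plin5 (-1.74 ± 0.17) and Ehhadh (-1.45 ± 0.21) fell too. Pecr (2.41 ± 0.13), Hadh (1.49 ± 0.25), Fasn (1.34 ± 0.14) and Acat1 (1.29 ± 0.20), which had fallen on Day0 against E18.5, rose on Day3. Acot1 thus had its high Day0 value beside Pdk4, Ppargc1a, Pnpla2 and Plin5, and Bdh1 its low one beside Hadh, Acat1, Pecr and Fasn. Genes in this description were chosen by their Day0 values, which are therefore no test.

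**Figure D4:**
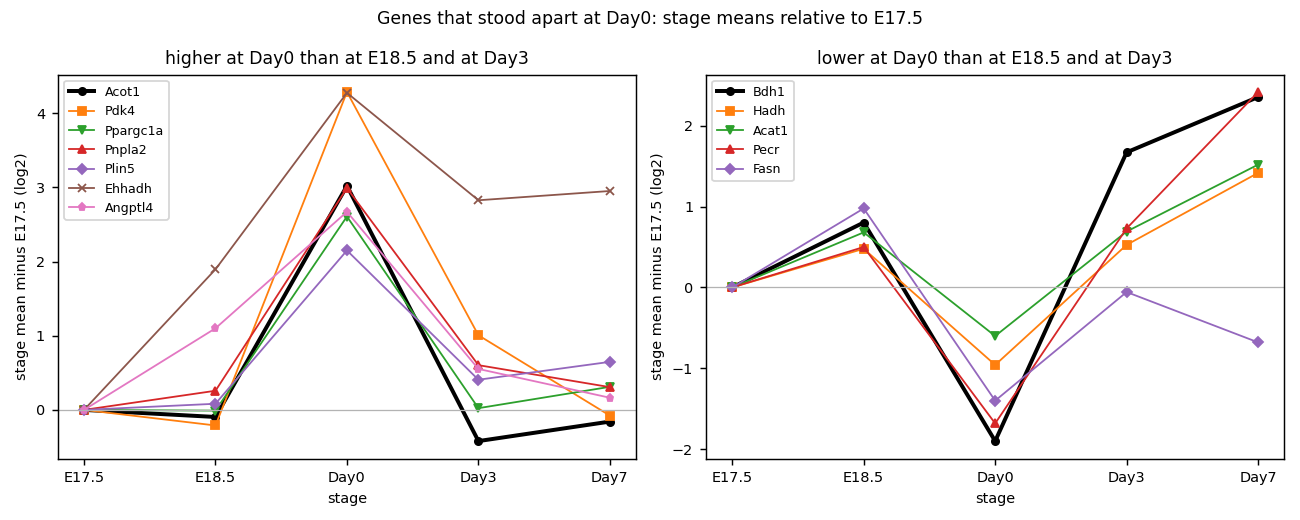
Stage means minus the E17.5 mean (log2 units, vertical axes) from E17.5 to Day7 (horizontal axes). The lines are some of the pathway genes called at both steps around Day0. Left, genes higher on Day0 than at E18.5 and Day3 (Acot1 in black); right, genes lower on Day0 (Bdh1 in black). These genes were drawn because of their Day0 values.

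On Day7 against Day3, 18 of the 93 genes rose and 3 fell, beside 3.32% and 2.84% of all genes. Of mitochondrial beta oxidation 6 of 17 rose and of peroxisomal oxidation 6 of 14, and 8 of the 9 genes studied here had positive changes with a median of 0.67, beside 0.04 for all genes. The mean of the erythroid markers was 7.92 on Day7 against 9.76 on Day3. The kidney marker Umod read 8.02 on Day7 against 4.12 on Day3. The gut marker Fabp2 read 10.99 against 8.53 and the gut marker Vil1 5.24 against 5.02. The part of these markers in the changes on Day7, where 6 of the 9 genes had their highest level, was not tested. Cpt1a (0.90 ± 0.28, adjusted p = 0.0292) and Acadm (0.94 ± 0.27, adjusted p = 0.0179) stayed under 1 log2 unit. From Day7 to Day14 none of the 9 was called (1.16% of all genes higher, 4.56% lower; 4 of the 9 had an unadjusted p under 0.05). Hadha (-0.83 ± 0.25, adjusted p = 0.0364) and Cpt2 (-0.79 ± 0.24, adjusted p = 0.0365) passed the p threshold alone, and only Fgf21 had a positive change (0.32). Day7 and Day14 have 1 array each.

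**Figure D5:**
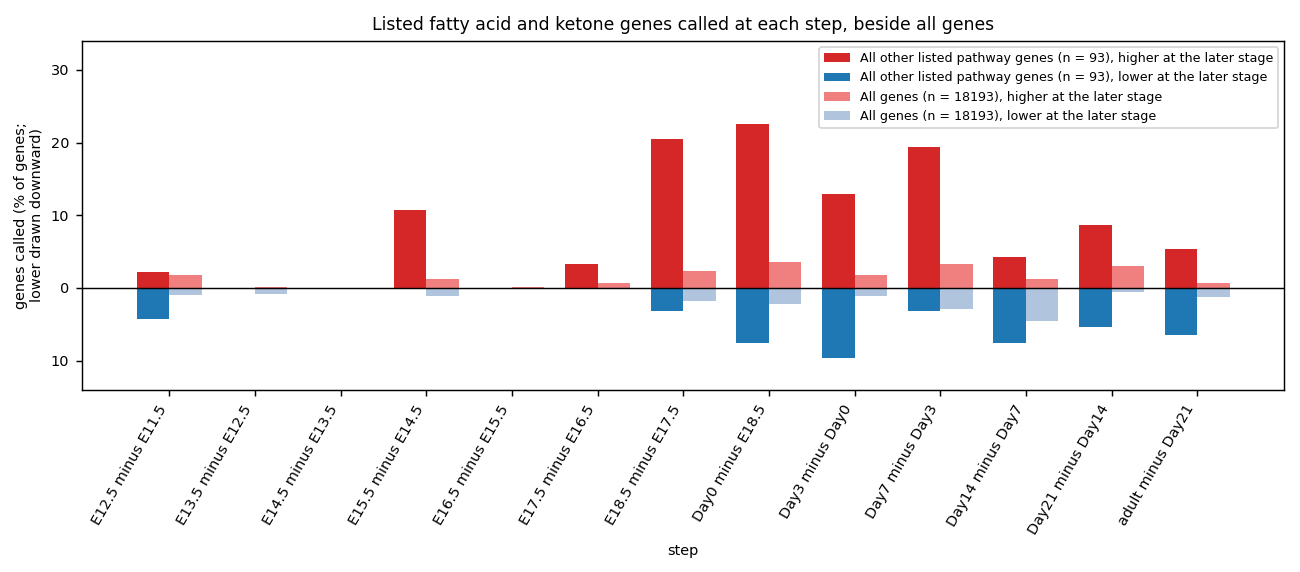
Share of genes called at each step (percent, vertical axis; higher at the later stage drawn upward, lower drawn downward) for the 93 other pathway genes (dark bars) and for all 18193 genes (pale bars). The upward pathway bars are tallest at the steps to E18.5, Day0 and Day7, and the downward ones at the step to Day3 (9.68%).

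Later stages were compared last. Day21 and the adult (n = 2 stages) were set against the 4 suckling stages, and 0 of the 9 genes were called (limma; 0 at an unadjusted p under 0.05; 1.04% of all genes called in either direction). Ppara averaged 9.85 ± 0.47 at the later and 9.44 ± 0.38 at the suckling stages. Cpt1a averaged 11.05 ± 0.39 at the later and 11.63 ± 0.37 at the suckling stages, and Hadha 10.01 ± 0.22 at the later and 10.57 ± 0.47 at the suckling ones. Differences of the 9 ran between -0.59 (Acadl) and 0.41 (Ppara), with standard errors of 0.29 to 0.92. Of the other 93 genes Pex11a, a peroxisome division protein, rose by 1.90 ± 0.32 and the ketone and lactate transporter Slc16a1 fell by 1.95 ± 0.27.

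At the single step to Day21 from Day14 none of the 9 genes was called either (3.03% of all genes higher, 0.528% lower), and Ppara alone had an unadjusted p under 0.05. Of the 93 others 8 rose and 5 fell. Angptl4 (1.88 ± 0.22), a lipase inhibitor, the peroxisomal thioesterase Acot3 (1.87 ± 0.11), Pex11a (1.83 ± 0.22), Fasn (1.71 ± 0.18), Pdk4 (1.56 ± 0.17), Lpin1 (1.25 ± 0.27), Txnip (1.24 ± 0.22) and Sirt1 (1.05 ± 0.23, against the single Day14 array) rose. Cd36 (-1.35 ± 0.29), Slc16a1 (-1.15 ± 0.28), Acat1 (-1.12 ± 0.24), G0s2 (-1.01 ± 0.24) and Crot (-1.0 ± 0.31) fell. Both ketone genes called at this step, Acat1 and Slc16a1, were lower on Day21, and mitochondrial beta oxidation had 0 of 17 called.

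The genes most like each of the 9 were taken by Pearson's r over the 14 stage means, among 3230 genes with a range of at least 2 log2 units. Stages form 1 developmental series and share arrays, so r is high for many genes and is given as a description. Ppara ran closest to Nr1h4 (r = 0.989), the bile acid receptor, and 460 genes exceeded 0.9. For Cpt1a the closest were Rnf125 (0.983), G6pc (0.983), the last enzyme of glucose release, and Cyp3a25 (0.980). Over the 6 stages from birth alone, these r were 0.491, 0.604 and 0.262. Slc25a20 (0.974) led for Cpt2, Pbld1 (0.984) and the clotting factor F10 (0.982) for Acadm, Mocs2 (0.982) and Ech1 (0.981) for Acadl, and Hadhb (0.978) for Hadha. Hadh (0.963), Pter (0.958) and Glud1 (0.937) led for Bdh1, with 7 genes above 0.9. Acot1 and Fgf21 had none above 0.9, and their closest were Carmil1 (0.857), Wnt4 (0.840) and Creld2 (0.805) for Acot1, and Dtx3l (0.800), Inhbe (0.794) and Gzma (0.785) for Fgf21. Among the 9 genes themselves r ran between -0.77 (Bdh1 and Acot1) and 0.96 (Acadl and Hadha) over the 36 pairs, with a median of 0.71.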

How the data were processed

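The deposited table holds intensity values on a linear scale for 45101 probe sets on 25 arrays, made by the authors with RMA per the submitters' processing notes; its version and scaling, the genome build and the array design are not given in the sources used. Biotin-labelled total RNA was hybridised per the labels' protocols. Array medians of log2 intensity lay between 5.41 and 5.53 and array means of intensity between 140.5 and 210.4, so the distributions were unequal and other scalings were tried. The log2 of each value was taken here, without a pseudocount.

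After the array's controls were left out, 34945 probe sets carried 1 symbol, which gave 18193 genes, each on its set with the highest mean. Classes of stages were compared on stage means, and the 13 neighbouring steps on all 25 arrays, with limma 3.58.1 (lmFit and eBayes) in R 4.3.3, after tests on simulated data. The number of arrays limits the precision.

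Members and lists were chosen with earlier results of these data known. Named genes were all members, up to 4 called and 2 other genes of each role list per class comparison, those called at birth or on Day21, and the 3 genes most like each member; of these some are left out of the text. Alternatives covered scalings, probe sets, dim genes, the variance model, class boundaries, a replicate block, and each stage or array left out.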

Additional observations from a re-analysis of the deposited data

Results flagged for a closer look

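In 27 groups of 4 stages (the 9 genes in the early fetal, late fetal and suckling classes), the gap between the highest or lowest stage and its nearest neighbour was compared with the whole range by Dixon's 95% critical value. It was exceeded in 2, and chance alone gives about 1 in 20 groups. The stages of a class are ordered in time and are not repeats.

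Acot1 was set apart on Day0 among the suckling stages. Its mean of 9.67 stood against 5.98 to 6.49 on Day3, Day7 and Day14, a gap of 0.862 of the range. Cpt1a was set apart at E11.5 among the early fetal stages, with a mean of 8.36 against 7.53 to 7.60 at E12.5, E13.5 and E14.5, a gap of 0.914 of the range. At the step to E12.5 Cpt1a changed by -0.82 ± 0.23 log2 units (limma adjusted p = 0.021), short of a call.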

How the results depend on the processing

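Each alternative changed 1 choice. With hepatocyte markers set equal on all arrays, which moves the median of all genes by -1.87 (late against early fetal), -0.41 (suckling against late fetal) and 0.13 (later stages against suckling), the late fetal differences turned to -0.86 (Ppara), -1.34 (Cpt1a), -0.47 (Acadm), -0.79 (Acadl), -1.34 (Hadha) and -1.80 (Fgf21). At E15.5 against E14.5 they turned to -1.11 (Ppara), -1.28 (Cpt1a), -1.36 (Cpt2), -1.28 (Hadha), -1.02 (Bdh1), -1.25 (Acot1) and -1.35 (Fgf21). By its construction this setting subtracts the rise of the markers. Under it 5 of the 9 genes and 17602 genes in all were called in the late fetal comparison, 1 of the 9 in the suckling one, 18 member calls were made over the steps, and 1786 genes were called at birth and 1245 on Day21.

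Late against early fetal (3 of the 9; 995 genes) gave 0 and 0 (3799 genes at an unadjusted p under 0.05 by limma) with the boundary between E13.5 and E14.5, 383 genes with it between E15.5 and E16.5, 1 of the 9 without the stages that have 1 array, and 0 to 3 of the 9 and 535 to 1260 genes when a stage was left out. Suckling against late fetal (2; 422) gave 1 of the 9 on the mean of all probe sets, 4 without dim genes, with the stage as a random block, with the boundary between E13.5 and E14.5, or with Day21 among the suckling stages, and 5 without Day0. Gene counts there were 929 with the random block, 157 with the boundary between E15.5 and E16.5 and 837 without Day0. Leaving out a stage gave 1 to 5 of the 9 and 137 to 837 genes. Later stages against suckling (0; 189) gave 336 genes with housekeeping genes set equal, 632 with the random block, 60 with Day21 among the suckling stages, 1054 without the stages that have 1 array, and 67 to 606 without a stage. Birth (1070 genes) gave 648 on the mean of all probe sets and 704 against E17.5, and Day21 (648) gave 364 on that mean. The cause of these shifts was not tested.

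Same-numbered arrays of different stages tended to deviate together, with r over 0.1 in 38 of 55 pairs of stages (-0.57 to 0.73, median 0.40). The main comparison of steps did not model this, and its cause was not tested. With the replicate block 11 member calls were made over the steps as before, and 1145 genes were called at birth, 531 on Day3 and 741 on Day21. In likeness, rho over 14 stages was 0.87 for Cpt1a and Rnf125, 0.60 for Acot1 and Carmil1 and 0.65 for Fgf21 and Dtx3l. Pearson's r over the 6 stages from birth was 0.49 for Cpt1a and Rnf125 and 0.88 for Acadm and Pbld1. Of 2330 single values under alternatives, 140 without a call turned sign.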

Other observations

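Adult livers differed from those of Day21 in pathway genes beyond Bdh1 and Acot1. The genes named in this paragraph were chosen after their values were seen. Of the 93 other pathway genes 5 were higher and 6 lower in adults, beside 0.61% and 1.2% of all genes. The omega hydroxylase Cyp4a12a averaged 9.87 in adults against 4.80 on Day21, called by limma (adjusted p = 2.79e-14). Its levels before the adult stage, 4.54 to 4.99, lay below the array medians of 5.41 to 5.53, so the size of the difference is not given. Cyp4a14 of the same family averaged 8.19 in adults against 11.25 on Day21 (-3.07 ± 0.21, SE of technical repeats). The peroxisomal transporter Abcd2 (-3.56 ± 0.13, to an adult level of 5.10, below those medians) and the thioesterase Acot3 (-2.89 ± 0.09) fell, whereas Acot1 rose. Fasn (1.5 ± 0.14) and Cd36 (1.57 ± 0.24) were higher in adults, and Ppargc1a (-2.25 ± 0.13) and Pdk4 (-1.78 ± 0.14) lower. Each stage is 1 pool of 3 livers, and the labels used here name no sex.

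The genes most like Acot1 stood higher on Day0 than on Day3, each on its own scale. Carmil1 averaged 7.00 on Day0 against 5.60 on Day3, Wnt4 8.71 on Day0 against 5.28 on Day3, and Creld2, an endoplasmic reticulum protein, 8.95 on Day0 against 7.62 on Day3. Inhbe, a hormone subunit made by liver and among the most Fgf21-like genes, averaged 8.51 on Day3 against 5.76 on Day0. They were picked for this likeness, so the values describe the choice.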
